A study of Mus musculus with 5 samples.

Results

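Tfrc, the gene of the transferrin receptor CD71, and 9 other genes of iron uptake, storage, export and sensing were followed in RNA from 2 cell populations of the mouse pancreas. The 10 genes were chosen by symbol, for their known roles, and all 10 were found among the 16992 gene symbols that the 5 deposited tables share. One population, CD133(high)CD71(low), gave 3 libraries and the other, CD133(positive)CD71(negative), gave 2. Both came from fresh pancreas of adult C57BL/6 mice aged 2 to 4 months, with no genetic change or treatment named in the labels. Prom1 encodes CD133. A second label calls the first population CD71 positive without grading it. Both sorting antigens are surface proteins, whereas the values below are RNA. The labels do not tell whether each library is its own animal or sort, and p-values therefore measure the spread among these 5 libraries, which may be technical.

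Cells take up iron mainly as transferrin, which binds the transferrin receptor at the surface and is carried into endosomes. There the iron is released, reduced and moved into the cytosol by the divalent metal transporter DMT1, and it is then used, stored in ferritin or exported through ferroportin. The iron regulatory proteins IRP1 and IRP2 tie these steps together: when cytosolic iron is low they bind hairpins called iron-responsive elements, which stabilises transferrin receptor mRNA and blocks translation of ferritin and ferroportin mRNAs. Because dividing cells need iron, and erythroid precursors need it most, CD71 is used as a surface marker of both.

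The hairpins are shown because they divide the genes into those whose mRNA is protected by the regulatory proteins and those whose translation is blocked, and because a difference in mRNA is for several of them only part of the control. UTRs of GENCODE M21 transcripts (GRCm38, the build of mm10) were searched on the transcript strand for CNNNNNCAGTGN with at least 4 of 5 pairs (wobble pairs allowed) between the 5 bases on each side of the 6-base loop. Of 10 genes, 4 held a match, and 4.17% of 20512 protein-coding genes held one in either UTR. Each site is written 5′ to 3′ in 30 bases, and capitals mark the loop. In Tfrc (plus strand of chromosome 16) 4 sites lay in the 3′ UTR, and in Slc11a2 (minus strand of chromosome 15) 1 site did. Fth1 (plus strand of chromosome 19) and Slc40a1 (minus strand of chromosome 1) each held 1 site in the 5′ UTR.
Tfrc, chr16:32631218-32631247: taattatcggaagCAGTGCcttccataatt
Tfrc, chr16:32631597-32631626: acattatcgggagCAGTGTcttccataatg
Tfrc, chr16:32631662-32631691: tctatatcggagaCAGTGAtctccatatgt
Tfrc, chr16:32631709-32631738: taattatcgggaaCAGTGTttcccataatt
Slc11a2, chr15:100395153-100395182: gagccatcagagcCAGTGTgtttctatggt
Fth1, chr19:9982731-9982760: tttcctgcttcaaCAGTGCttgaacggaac
Slc40a1, chr1:45925465-45925494: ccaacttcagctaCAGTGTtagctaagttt

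The motif searched fixes the first 5 bases of the loop and leaves only the last one free. The stem of the Slc11a2 site had 4 of 5 pairs and the stems of the other 6 had all 5. A match is a description of these letters and was not tested for binding.

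Values are those the authors deposited, one per gene and library, and their unit was inferred to be RPKM, reads per transcript kilobase for a fixed total of reads. Depth, found from the steps between low values, was 30.9 to 41.9 M reads (M, 1e6) in CD133(high)CD71(low) and 19.8 to 25.5 M in CD133(positive)CD71(negative) libraries. Each fold change takes CD133(high)CD71(low) over CD133(positive)CD71(negative) as a difference of log2(RPKM + 1), which understates the change of low genes, and was tested with limma over 11769 genes with a mean of at least 1 RPKM. CD133(high)CD71(low) library 3 was set apart, with a Pearson r across genes of 0.957 and 0.961 to libraries 1 and 2, which had 0.996 with each other, and its table rests on other gene models. The median log2 fold change of all tested genes was 0.31, and 0.02 after median-of-ratios scaling, which sets the typical gene equal between libraries. Fold changes are to be read against that median. Values without library 3 or with that scaling are added for the iron genes and wherever they end a call or move it by over 1.5 times.

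Hmox1 and Hfe passed the test at an adjusted p under 0.05, and both were lower in CD133(high)CD71(low) cells. Of the 10 genes 9 were tested, of which 0 rose and 2 fell, while 6.25% of all tested genes rose (735) and 7.22% fell (850). The groups did not overlap for 8 of the 9, against 70.2% of all tested genes, and for 6 of the 9 the CD133(high)CD71(low) libraries all lay above, against 58.2%. The median log2 fold change of the 9 was 0.31, the same as that of all genes to this precision. Without library 3, 4 rose (Tfrc, Slc40a1, Aco1 and Fth1) and 2 fell, while 40.9% of all genes rose (4785) and 12.2% fell (1425). With median-of-ratios scaling 0 rose and 2 fell, while 1.87% of all genes rose (220) and 9.4% fell (1106). With both changes 2 rose (Slc40a1 and Aco1) and 3 fell (Hmox1, Hfe and Trf), while 12.3% of all genes rose (1438) and 17.9% fell (2090). Hmox1 and Hfe were the only 2 of the 10 called in all 4 settings. Of all calls 46.4% were higher with the deposited values, 77.1% without library 3, 16.6% with scaling and 40.8% with both.

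**Figure D1:**
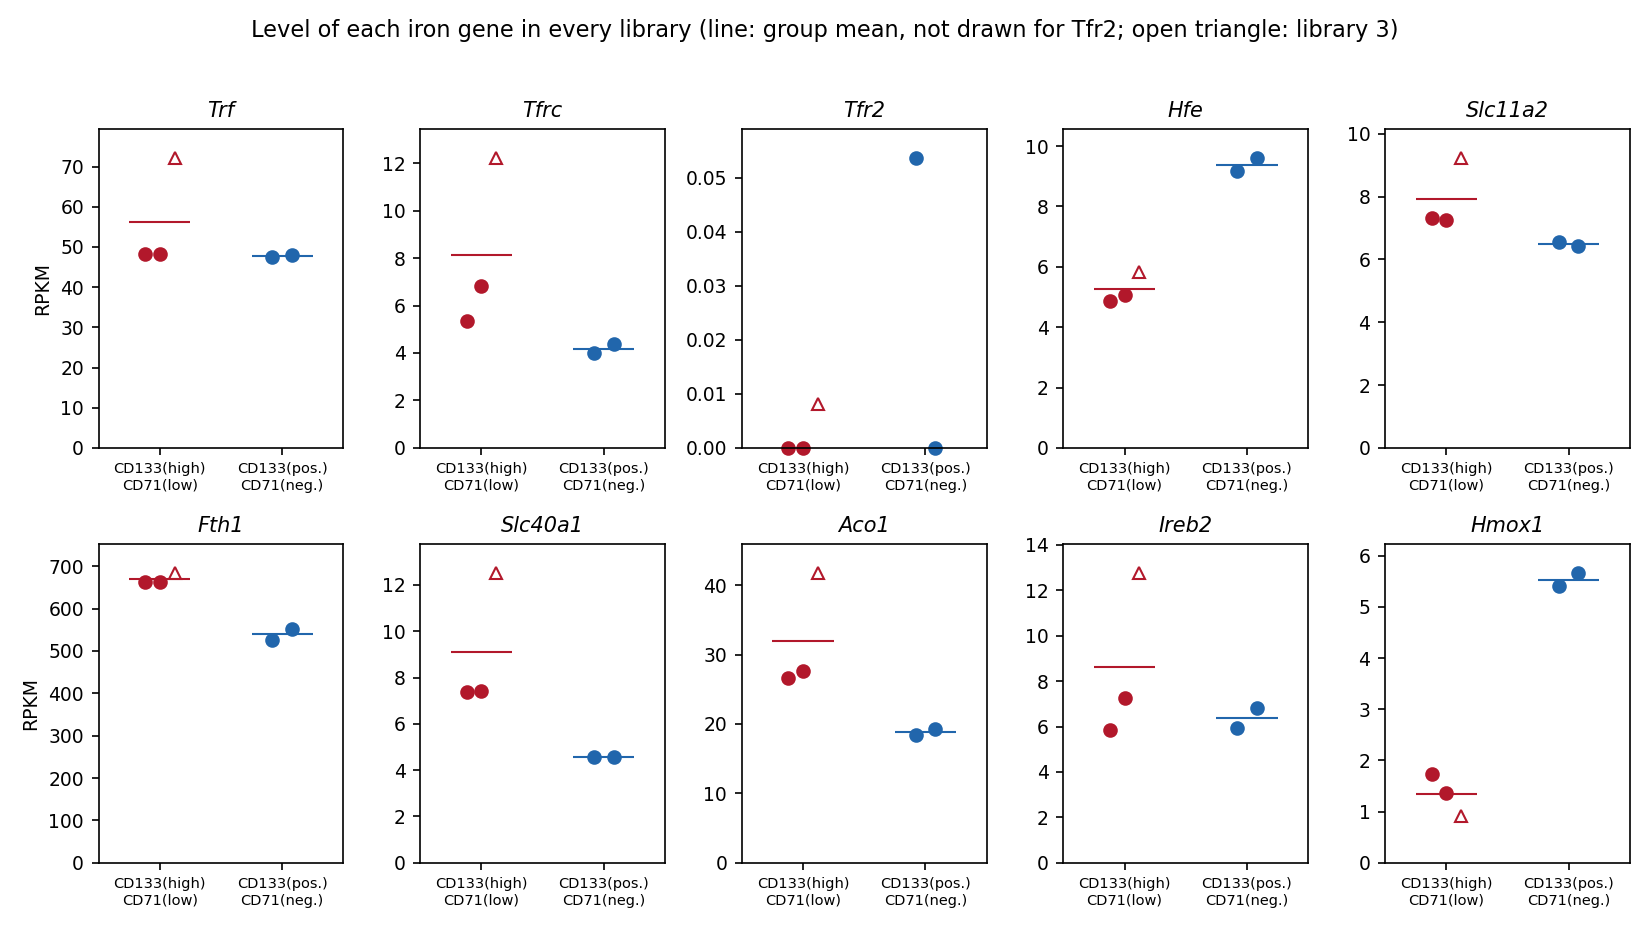
RPKM (linear axes from 0) of each of the 10 iron genes in every library, with CD133(high)CD71(low) libraries in red on the left and CD133(positive)CD71(negative) libraries in blue on the right, and lines at group means except for Tfr2. Hmox1 and Hfe are the genes whose red points all lie below the blue ones, and the open triangle of library 3 is the highest red point for every gene except Hmox1.

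Tfrc RNA was low to moderate in both populations and lay higher in every CD71(low) library than in either CD71(negative) library. Tfrc (ENSMUSG00000022797.16, chromosome 16, 32608920 to 32632794, plus strand) measured 5.34, 6.84 and 12.2 RPKM in the CD133(high)CD71(low) libraries and 4.00 and 4.36 RPKM in the CD133(positive)CD71(negative) libraries. The groups did not overlap, but the lowest CD133(high)CD71(low) library was closer to the CD133(positive)CD71(negative) libraries than to library 3 of its own group. The mean was 8.13 ± 3.61 RPKM (SD, n = 3) in CD133(high)CD71(low) and 4.18 ± 0.26 RPKM (SD, n = 2) in CD133(positive)CD71(negative), a ratio of 1.95. The log2 fold change was 0.75 ± 0.32 (SE, adjusted p = 0.151 in limma), so Tfrc did not pass. Without library 3 the ratio was 1.46 and Tfrc passed (log2 fold change 0.45 ± 0.12 SE, adjusted p = 0.0112 in limma). With both that change and median-of-ratios scaling it was 0.25 (SE 0.11, limma adjusted p = 0.13), and with scaling alone 0.46 (SE 0.23, limma adjusted p = 0.315). Scaled levels of Tfrc were 5.23, 6.76 and 9.62 in CD133(high)CD71(low) and 4.81 and 4.87 in CD133(positive)CD71(negative), still without overlap. About 836 to 2502 reads in CD133(high)CD71(low) libraries and 422 to 499 in CD133(positive)CD71(negative) libraries lay behind these values, as RPKM times transcript length times depth. In RNA of sorted pools, fewer cells with a transcript and less transcript per cell cannot be told apart.

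The gene of the other sorting antigen, Prom1, did not pass over 5 libraries either, and its ratio to Tfrc overlapped between the populations. Prom1 measured 72.8, 74.7 and 133 RPKM in CD133(high)CD71(low) and 45.8 and 48.8 RPKM in CD133(positive)CD71(negative). The ratio of Tfrc to Prom1 was 0.0734, 0.0915 and 0.0916 in CD133(high)CD71(low) libraries and 0.0873 and 0.0893 in CD133(positive)CD71(negative) libraries, so the 2 groups overlapped in it. The log2 fold change of Prom1 was 0.91 ± 0.29 (SE, adjusted p = 0.0909 in limma). Prom1 passed without library 3 (0.63, limma adjusted p = 0.000208) and also with both changes (0.40, limma adjusted p = 0.00279), where Tfrc did not pass.

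Genes whose profile over the 5 libraries was most like that of Tfrc were sought among 7838 genes with a mean of at least 5 RPKM, by the root mean square difference between log2 profiles centred on their means. The nearest was Dnajb4, a co-chaperone gene of the Hsp40 family, at a difference of 0.0205. It measured 10.8, 14.0 and 24.4 RPKM in CD133(high)CD71(low) and 8.69 and 9.25 RPKM in CD133(positive)CD71(negative). Next came Ggct, a glutathione cycle enzyme gene (0.0522), the syndecan gene Sdc2 (0.0528), the Hsp90 chaperone gene Hsp90aa1 (0.0531) and the peptide transporter gene Slc15a2 (0.061). All 5 were highest in library 3 and none passed the test over 5 libraries (limma adjusted p of 0.104 to 0.165).

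Marker lists bear on cells known for high CD71. Their sums and calls are those of the deposited values and are not given after median-of-ratios scaling. That scaling divides by 1.02, 1.01 and 1.27 in CD133(high)CD71(low) and by 0.832 and 0.896 in CD133(positive)CD71(negative). Divided by these factors, the proliferation sums overlap between the groups. That of library 3 then lies below both CD133(positive)CD71(negative) sums, and those of libraries 1 and 2 stay above them. Beside the calls below, 6.25% of all tested genes rose and 7.22% fell, and with scaling 1.87% and 9.4%. Summed RPKM of 12 proliferation genes was 44.8, 47.5 and 46.9 in CD133(high)CD71(low) and 32.9 and 36.3 in CD133(positive)CD71(negative), and 4 of 10 tested members rose and 0 fell. The erythroid list, of which 8 of 14 symbols were in the tables, summed to 123, 119 and 32.6 RPKM in CD133(high)CD71(low) and 13.6 and 14.1 RPKM in CD133(positive)CD71(negative), and 3 of 4 tested members rose and 0 fell. Library 3 had the lowest erythroid sum of its group, but its table rests on other gene models. In libraries 1, 2 and 3 Hba-a1 measured 58.5, 57.9 and 3.18 RPKM, while Hbb-b1 measured 11.8, 7.23 and 9.93 RPKM. These 4 tested members were globin genes, whose near-identical copies share reads, and the erythroid heme enzyme gene Alas2 measured 0.69, 0.57 and 0.27 RPKM in CD133(high)CD71(low) and 0.18 RPKM in both CD133(positive)CD71(negative) libraries. Tal1 of the same list went the other way, at 0.47, 0.33 and 0.11 RPKM against 1.77 and 1.95 RPKM. Klf1 (0.16, 0.23 and 0.22 against 0.18 and 0.033 RPKM) and Epor (0.051, 0.089 and 0.026 against 0.086 and 0.33 RPKM) overlapped. Alas2, Tal1, Klf1 and Epor were too low to be tested. Duct markers summed to 4836, 4852 and 6892 RPKM in CD133(high)CD71(low) and 3387 and 3604 RPKM in CD133(positive)CD71(negative), and 9 of 12 rose. The part of these lists in the Tfrc values was not tested.

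The remaining genes of transferrin uptake split, with the carrier abundant, the second receptor near 0 and the receptor partner lower. Trf, which encodes transferrin (chromosome 9, 103204001 to 103230444, minus strand), measured 48.4, 48.1 and 72.1 RPKM in CD133(high)CD71(low) and 47.6 and 48.0 RPKM in CD133(positive)CD71(negative). The 4 numbered libraries thus lay within 1 RPKM of each other and only library 3 was apart. The log2 fold change was 0.20 ± 0.21 (SE, adjusted p = 0.451 in limma), 0.01 without library 3 (limma adjusted p = 0.885) and -0.21 with both changes (SE 0.07, limma adjusted p = 0.0479), where the direction turned and Trf was called lower. Alb, the leading transcript of hepatocytes, a main source of transferrin, measured 19.4, 19.0 and 34.0 RPKM in CD133(high)CD71(low) and 10.8 and 10.4 RPKM in CD133(positive)CD71(negative), and the other 5 hepatocyte markers stayed under 0.3 RPKM in every library. Tfr2, encoding the second transferrin receptor, known from liver and erythroid cells, was listed at 0, 0 and 0.00815 RPKM in CD133(high)CD71(low) and at 0.0536 and 0 RPKM in CD133(positive)CD71(negative). It was too low to be tested and no fold change is given.

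Hfe encodes an MHC class I-like protein that binds transferrin receptor 1 together with beta-2-microglobulin and whose loss causes iron overload. Hfe (ENSMUSG00000006611.15, chromosome 13, 23702034 to 23710854, minus strand) measured 4.86, 5.08 and 5.82 RPKM in CD133(high)CD71(low) and 9.18 and 9.60 RPKM in CD133(positive)CD71(negative). All 3 CD133(high)CD71(low) values lay far below both others. The mean was 5.25 ± 0.50 RPKM (SD, n = 3) in CD133(high)CD71(low) and 9.39 ± 0.30 RPKM (SD, n = 2) in CD133(positive)CD71(negative), a ratio of 0.56, and Hfe fell with a log2 fold change of -0.74 ± 0.13 (SE, adjusted p = 0.0219 in limma). It was -0.80 without library 3, -1.04 with scaling and -1.001 with both changes, and was called in each. The beta-2-microglobulin gene B2m, which also serves all other MHC class I proteins, measured 138, 135 and 127 RPKM in CD133(high)CD71(low) and 314 and 320 RPKM in CD133(positive)CD71(negative). It fell likewise (log2 fold change -1.24 ± 0.12 SE, adjusted p = 0.00359 in limma). With any 1 library other than CD133(high)CD71(low) library 3 left out, Hfe no longer passed (limma adjusted p of 0.0941 and 0.0988 without CD133(high)CD71(low) library 1 or 2, and 0.242 and 0.211 without CD133(positive)CD71(negative) library 1 or 2), at log2 fold changes of -0.69 to -0.76.

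Neither Slc11a2 nor Fth1 passed over all 5 libraries. Slc11a2, encoding DMT1 (chromosome 15, 100387898 to 100425072, minus strand), measured 7.31, 7.26 and 9.22 RPKM in CD133(high)CD71(low) and 6.56 and 6.43 RPKM in CD133(positive)CD71(negative). The groups did not overlap, but the log2 fold change of 0.25 ± 0.15 (SE, adjusted p = 0.249 in limma) was below that of the median gene and was -0.06 with median-of-ratios scaling. Fth1, encoding the ferritin heavy chain that oxidises iron for storage (chromosome 19, 9980598 to 9985098, plus strand), was the most abundant of the 10 genes. It measured 663, 662 and 684 RPKM in CD133(high)CD71(low) and 527 and 552 RPKM in CD133(positive)CD71(negative), a log2 fold change of 0.31 ± 0.15 (SE, adjusted p = 0.172 in limma). Without library 3 it passed (0.30, SE 0.07, limma adjusted p = 0.00963), and with median-of-ratios scaling it turned to -0.03. The light chain gene Ftl1, named after its values were seen, measured 463, 431 and 250 RPKM in CD133(high)CD71(low) and 479 and 480 RPKM in CD133(positive)CD71(negative). With both changes Ftl1 was called lower (log2 fold change -0.33, limma adjusted p = 0.0195), and over 5 libraries it did not pass (-0.38, limma adjusted p = 0.347). The ratio of Fth1 to Ftl1 was 1.43, 1.54 and 2.74 in CD133(high)CD71(low) and 1.1 and 1.15 in CD133(positive)CD71(negative). Ferritin genes have many near-identical processed pseudogenes and library 3 used other gene models, so this ratio is uncertain there.

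The iron exporter gene lay higher alongside the receptor gene. Slc40a1, encoding ferroportin, the known cellular iron exporter (ENSMUSG00000025993.10, chromosome 1, 45908068 to 45926523, minus strand), measured 7.36, 7.41 and 12.5 RPKM in CD133(high)CD71(low) and 4.58 and 4.56 RPKM in CD133(positive)CD71(negative). The mean was 9.09 ± 2.96 RPKM (SD, n = 3) in CD133(high)CD71(low) and 4.57 ± 0.014 RPKM (SD, n = 2) in CD133(positive)CD71(negative), a ratio of 1.99. The log2 fold change of 0.82 was the highest of the 9 tested genes and did not pass (SE 0.25, limma adjusted p = 0.0815). It passed without library 3 (0.59, SE 0.09, limma adjusted p = 0.000608) and with both changes (0.39, SE 0.08, limma adjusted p = 0.00747). The ratio of Tfrc to Slc40a1 was 0.726, 0.924 and 0.976 in CD133(high)CD71(low) and 0.872 and 0.955 in CD133(positive)CD71(negative), with overlap between the groups.

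Of the 2 sensor genes Aco1 was the more abundant and lay further apart between the populations. Aco1 encodes IRP1, which is a cytosolic aconitase when it holds an iron-sulfur cluster (ENSMUSG00000028405.9, chromosome 4, 40143081 to 40198338, plus strand). It measured 26.6, 27.6 and 41.8 RPKM in CD133(high)CD71(low) and 18.4 and 19.3 RPKM in CD133(positive)CD71(negative), a log2 fold change of 0.70 ± 0.22 (SE, adjusted p = 0.088 in limma). Without library 3 it passed (0.50, SE 0.08, limma adjusted p = 0.00106), also with both changes (0.28, SE 0.07, limma adjusted p = 0.0175). Ireb2, encoding IRP2, which is degraded when iron is plentiful (chromosome 9, 54863789 to 54912530, plus strand), measured 5.85, 7.26 and 12.8 RPKM in CD133(high)CD71(low) and 5.93 and 6.82 RPKM in CD133(positive)CD71(negative). It was the one tested gene of the 9 whose groups overlapped (log2 fold change 0.32 ± 0.31 SE, adjusted p = 0.429 in limma), and with both changes it was at -0.17 (limma adjusted p = 0.264). The ratio of Aco1 to Ireb2 was 4.55, 3.80 and 3.27 in CD133(high)CD71(low) and 3.10 and 2.83 in CD133(positive)CD71(negative), without overlap.

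Hmox1, which encodes the inducible heme oxygenase that frees iron from heme and is prominent in macrophages, had the largest log2 fold change in size of the 9 tested genes. Hmox1 (ENSMUSG00000005413.8, chromosome 8, 75093621 to 75100589, plus strand) measured 1.74, 1.36 and 0.906 RPKM in CD133(high)CD71(low) and 5.40 and 5.66 RPKM in CD133(positive)CD71(negative). The 3 CD133(high)CD71(low) values lay far below both others, and library 3 was the lowest, while it was the highest of its group for the other 9 genes. The mean was 1.34 ± 0.42 RPKM (SD, n = 3) in CD133(high)CD71(low) and 5.53 ± 0.19 RPKM (SD, n = 2) in CD133(positive)CD71(negative), a ratio of 0.241. Hmox1 fell with a log2 fold change of -1.50 ± 0.18 (SE, adjusted p = 0.0072 in limma). It was -1.36 without library 3, -1.74 with scaling and -1.53 with both changes, and was called in each. About 60 to 88 reads per CD133(high)CD71(low) library and 176 to 216 per CD133(positive)CD71(negative) library lay behind these values. Dropping either CD133(positive)CD71(negative) library, 1 or 2, ended the call (limma adjusted p = 0.127 and 0.125), with log2 fold changes of -1.53 and -1.47. Of the other heme oxygenase gene, the constitutive Hmox2, 19.9, 19.3 and 29.1 RPKM were measured in CD133(high)CD71(low) and 17.4 and 19.5 RPKM in CD133(positive)CD71(negative), with overlap (limma adjusted p = 0.343).

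**Figure D2:**
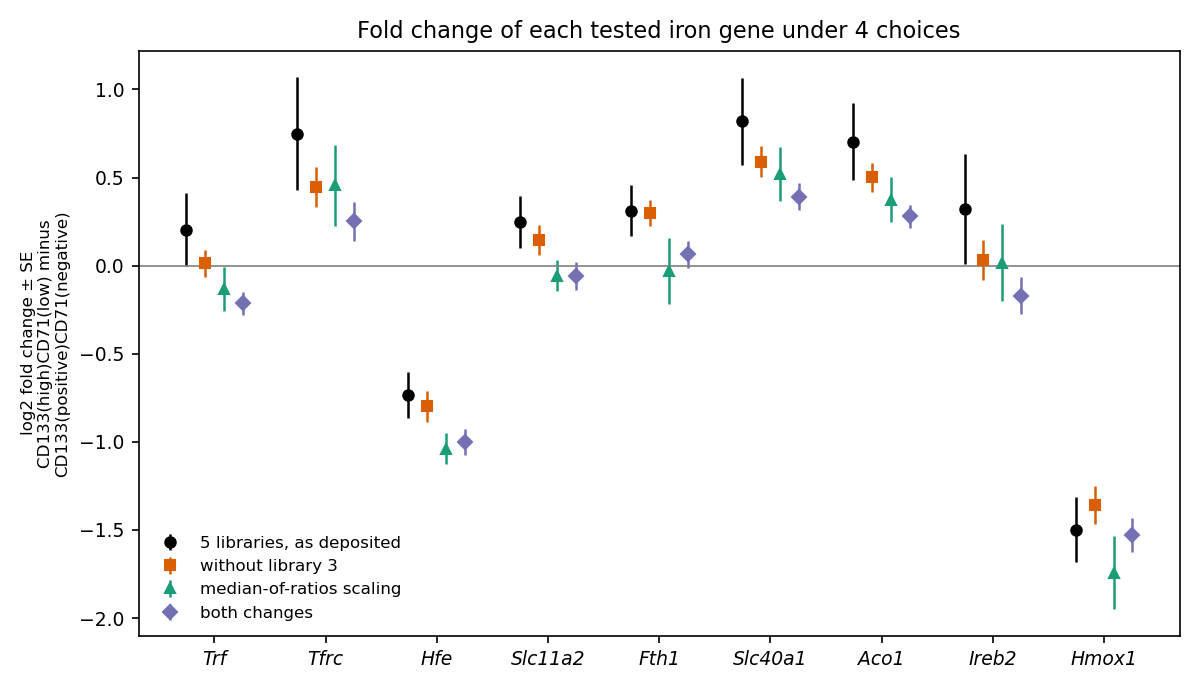
Log2 fold change ± SE (limma) of the 9 tested iron genes, CD133(high)CD71(low) over CD133(positive)CD71(negative), with the deposited values, without library 3, with median-of-ratios scaling, and with the last 2 changes combined. Hmox1 and Hfe lie below 0 in all 4 and Tfrc, Slc40a1 and Aco1 above 0 in all 4, while Trf, Slc11a2, Fth1 and Ireb2 lie near 0 and take both signs.

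Markers of other cell types moved with Hmox1 and Hfe. Beside the calls below, which are for the deposited values, 6.25% of all tested genes rose and 7.22% fell. The macrophage and monocyte list (13 of 14 symbols in the tables, all 13 above 0 in every library) summed to 78.5, 71.6 and 60.4 RPKM in CD133(high)CD71(low) and 545 and 533 RPKM in CD133(positive)CD71(negative), a ratio of means of 0.13. Of its 12 tested members 10 fell, 1 rose (Cd14) and Csf1r was not called. The endothelial list summed to 199, 123 and 66.6 RPKM in CD133(high)CD71(low) and 711 and 663 RPKM in CD133(positive)CD71(negative), and all 10 members fell. The stellate and mesenchymal list summed to 22.8, 19.9 and 6.28 RPKM in CD133(high)CD71(low) and 99.3 and 91.7 RPKM in CD133(positive)CD71(negative), and 5 of 7 tested members fell. The lymphocyte and plasma cell list summed to 4.81 to 5.98 RPKM in CD133(high)CD71(low) and 97.2 to 123 RPKM in CD133(positive)CD71(negative), and 3 of 3 tested members fell. Within CD133(high)CD71(low) Hmox1 was highest in library 1 and lowest in library 3. The macrophage, endothelial and mesenchymal sums had that order, and Hfe had the opposite one. The lymphocyte sums (5.98, 4.81 and 5.70 RPKM) and Schwann cell sums (22.5, 19.6 and 22.6 RPKM) did not have it. Single macrophage markers also differed, with Emr1 (0.154, 0.22 and 0.133 RPKM) and Cd68 (0.961, 1.285 and 0.554 RPKM) highest in library 2. Cd14, which rose, made up much of the macrophage sums there (37.6, 35.5 and 35.2 RPKM). The part of these cell types in the Hmox1 and Hfe values was not tested.

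**Figure D3:**
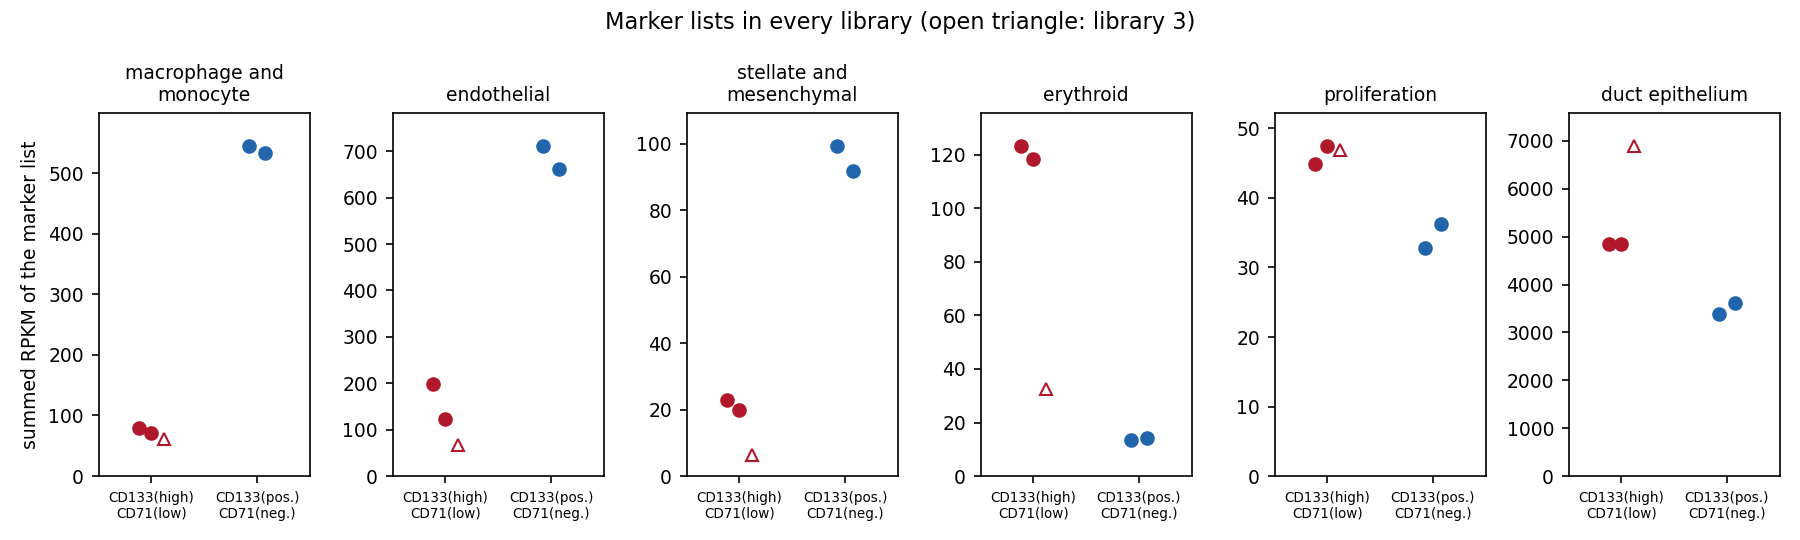
Summed RPKM (linear axes from 0) of 6 marker lists in every library, with CD133(high)CD71(low) libraries in red on the left and CD133(positive)CD71(negative) libraries in blue on the right. As deposited, without median-of-ratios scaling, macrophage, endothelial and mesenchymal sums lie lower and erythroid, proliferation and duct sums higher in CD133(high)CD71(low) libraries. Library 3 (open triangle) is the lowest of its group in the first 4 lists.

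Acinar markers had the largest sum of the marker lists in every library (14 of 14 above 0). It was 221300, 224300 and 99880 RPKM in CD133(high)CD71(low) and 266100 and 237800 RPKM in CD133(positive)CD71(negative), and 0 of 14 were called. All shared symbols together summed to 501335, 501448 and 428456 RPKM in CD133(high)CD71(low) and 530406 and 502649 RPKM in CD133(positive)CD71(negative). The acinar share of the shared symbols was thus lowest in library 3. All symbols of its own table summed to 491015 RPKM, and that table rests on other gene models, so its share is not strictly comparable. The endocrine list summed to 1583, 1840 and 592 RPKM in CD133(high)CD71(low) and 1849 and 1676 RPKM in CD133(positive)CD71(negative), with 5 of 9 tested members lower. The insulin genes were not called and lay higher in libraries 1 and 2 but lower in library 3. Ins2 measured 1048, 1151 and 325 RPKM in CD133(high)CD71(low) and 732 and 508 RPKM in CD133(positive)CD71(negative). Ins1 measured 211.5, 274.4 and 70.5 RPKM against 153.4 and 100.5 RPKM. Of 5 tested Schwann cell markers 3 fell, and the list summed to 19.6 to 22.6 RPKM in CD133(high)CD71(low) and 33.8 to 35.4 RPKM in CD133(positive)CD71(negative). Of all tested genes 6.25% rose and 7.22% fell.

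Ranked by mean RPKM, Fth1, Trf and Aco1 held places 1, 2 and 3 of the 10 genes in both populations. Below them the order differed. In CD133(high)CD71(low) cells Slc40a1, Ireb2, Tfrc and Slc11a2 followed within 9.09 to 7.93 RPKM, and their ranges over libraries overlapped. Hfe at 5.25 RPKM overlapped with the lowest Tfrc library, and Hmox1 at 1.34 RPKM lay clear of all of them. In CD133(positive)CD71(negative) cells Hfe came after Aco1, clear of the next genes, Slc11a2 and Ireb2 at 6.49 and 6.38 RPKM, which overlapped. Hmox1 followed at 5.53 RPKM, then Slc40a1 at 4.57 RPKM and Tfrc at 4.18 RPKM, whose ranges did not meet. Tfrc thus ranked 6 of 10 in CD133(high)CD71(low) and 9 of 10 in CD133(positive)CD71(negative), and Hfe 8 and 4.

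The wider iron pathway was described through 98 further genes in 8 roles, of which 91 were in the tables and 77 were tested. In all 6 rose and 4 fell, beside 6.25% and 7.22% of all genes, and the median log2 fold change was 0.31, as over all genes. Without library 3, 32 rose and 7 fell, beside 40.9% and 12.2% of all genes. With median-of-ratios scaling 2 rose (Bdh2 and Tmprss6) and 5 fell, beside 1.87% and 9.4% of all genes. With both changes 12 rose and 14 fell, beside 12.3% and 17.9% of all genes. Without CD133(high)CD71(low) library 1 or 2, 0 rose and 4 or 2 fell, and without CD133(positive)CD71(negative) library 1 or 2, 0 rose and 0 fell.

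Of 11 tested genes of hepcidin, the iron hormone, and its regulators 2 rose and 3 fell, beside 6.25% and 7.22% of all genes, and all 5 calls were lost when either CD133(positive)CD71(negative) library was left out. Tmprss6, encoding a protease that restrains hepcidin in liver, measured 9.42, 9.47 and 11.1 RPKM in CD133(high)CD71(low) and 5.41 and 5.53 RPKM in CD133(positive)CD71(negative) (log2 fold change 0.76 ± 0.13 SE, adjusted p = 0.0197 in limma). Neo1, encoding the hemojuvelin-binding receptor neogenin, measured 12.4, 12.5 and 15.4 RPKM in CD133(high)CD71(low) and 7.85 and 8.16 RPKM in CD133(positive)CD71(negative) (limma adjusted p = 0.0349). Both rose. With median-of-ratios scaling Tmprss6 was at 0.46 and still called, while Neo1 was at 0.37, against 0.68 as deposited, and its call ended (limma adjusted p = 0.0504). Besides B2m, the BMP target gene Id1 fell, at 11.4, 6.26 and 3.55 RPKM in CD133(high)CD71(low) and 43.9 and 41.8 RPKM in CD133(positive)CD71(negative) (log2 fold change -2.56, limma adjusted p = 0.0169). Its library order within CD133(high)CD71(low) was that of the endothelial sum (199, 123 and 66.6 RPKM), and the part of endothelial cells in the fallen hepcidin regulators was not tested. Without CD133(high)CD71(low) library 2 the Id1 call ended (limma adjusted p = 0.0604). The other fallen member, named after its values were seen, was Bmp6, the BMP ligand that endothelial cells of the liver make in response to iron. It measured 10.2, 7.88 and 8.78 RPKM in CD133(high)CD71(low) and 16.1 and 16.7 RPKM in CD133(positive)CD71(negative). Unlike Id1, Bmp6 did not follow the library order of the endothelial sum. Hepcidin genes were also named after their values were seen. Hamp was below 0.0001 RPKM in all 5 libraries and its near-identical copy Hamp2 measured 40.4, 40.0 and 26.1 RPKM in CD133(high)CD71(low) and 42.4 and 44.4 RPKM in CD133(positive)CD71(negative) (limma adjusted p = 0.308). The 2 share sequence and are uncertain as single genes.

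Among 11 iron and oxygen sensing genes 1 rose and 1 fell, beside 6.25% and 7.22% of all genes. Epas1, encoding the hypoxia factor HIF-2alpha, fell, at 45.9, 33.5 and 28.6 RPKM in CD133(high)CD71(low) and 106 RPKM in both CD133(positive)CD71(negative) libraries (log2 fold change -1.56 ± 0.21 SE, adjusted p = 0.0102 in limma). Its library order within CD133(high)CD71(low) was that of the endothelial sum (199, 123 and 66.6 RPKM), whose part in it was not tested. Egln3, encoding an oxygen-sensing prolyl hydroxylase, rose at low levels (1.93, 2.09 and 2.45 RPKM in CD133(high)CD71(low), against 1.16 and 1.02 RPKM in CD133(positive)CD71(negative), limma adjusted p = 0.0391). With median-of-ratios scaling the log2 fold change of Egln3 was 0.39, against 0.59 as deposited, and its call ended (limma adjusted p = 0.0792).

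Calls of the next 3 roles stand beside 6.25% of all genes that rose and 7.22% that fell. Of 9 tested importers and endosomal genes 1 rose and 0 fell. This was Lcn2, encoding the siderophore-binding protein lipocalin 2, at 29.1, 25.6 and 28.9 RPKM in CD133(high)CD71(low) and 17.6 and 17.8 RPKM in CD133(positive)CD71(negative) (log2 fold change 0.63, limma adjusted p = 0.026). With median-of-ratios scaling it was 0.30 and the call ended (limma adjusted p = 0.221). Of 5 tested storage and chaperone genes 1 rose, Bdh2, an enzyme gene linked to a mammalian siderophore, at 2.17, 2.24 and 2.92 RPKM in CD133(high)CD71(low) and 1.07 and 0.994 RPKM in CD133(positive)CD71(negative) (log2 fold change 0.75, limma adjusted p = 0.0269). Of 2 tested oxidase and exporter genes none passed (limma). Cp, encoding the copper ferroxidase ceruloplasmin that works with ferroportin, measured 213, 233 and 506 RPKM in CD133(high)CD71(low) and 104 and 119 RPKM in CD133(positive)CD71(negative). Its log2 fold change of 1.39 was the highest of the 77 but library 3 set its spread (SE 0.40, limma adjusted p = 0.0747), and without that library Cp passed (0.99, limma adjusted p = 2.53e-05). The heme exporter gene Abcg2 measured 4.36, 3.65 and 7.73 RPKM in CD133(high)CD71(low) and 6.27 and 4.67 RPKM in CD133(positive)CD71(negative), with overlap (limma adjusted p = 0.808). It was called lower without library 3 (-0.36, limma adjusted p = 0.0416) and with both changes (-0.55, limma adjusted p = 0.0268).

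Heme and iron-sulfur genes lay near the median gene, and their calls stand beside 6.25% of all genes that rose and 7.22% that fell. Of 12 tested heme synthesis genes 1 rose, Alad, encoding the second enzyme of the pathway, at 23.7, 23.4 and 22.9 RPKM in CD133(high)CD71(low) and 14.8 and 14.6 RPKM in CD133(positive)CD71(negative) (log2 fold change 0.63 ± 0.11 SE, adjusted p = 0.0184 in limma). With median-of-ratios scaling Alad was at 0.31 and its call ended (limma adjusted p = 0.271), as it did with acinar genes removed (0.49, limma adjusted p = 0.0545). The median of the 12 was 0.30. Of 4 tested heme uptake and breakdown genes 0 were called. The lysosomal heme transporter gene Slc48a1 measured 33.1, 30.6 and 32.7 RPKM in CD133(high)CD71(low) and 24.5 and 25.9 RPKM in CD133(positive)CD71(negative) (limma adjusted p = 0.0945). Without library 3 Slc48a1 passed (0.33, limma adjusted p = 0.0108), but not with both changes (0.10, limma adjusted p = 0.307). Of 23 tested mitochondrial and iron-sulfur genes 0 were called, with a median of 0.29. The mitochondrial chaperone gene Hspa9 measured 43.1, 43.7 and 55.1 RPKM in CD133(high)CD71(low) and 31.2 and 31.7 RPKM in CD133(positive)CD71(negative) (limma adjusted p = 0.0635). Hspa9 passed without library 3 (0.45, limma adjusted p = 0.00144) and with both changes (0.23, limma adjusted p = 0.0392).

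**Figure D4:**
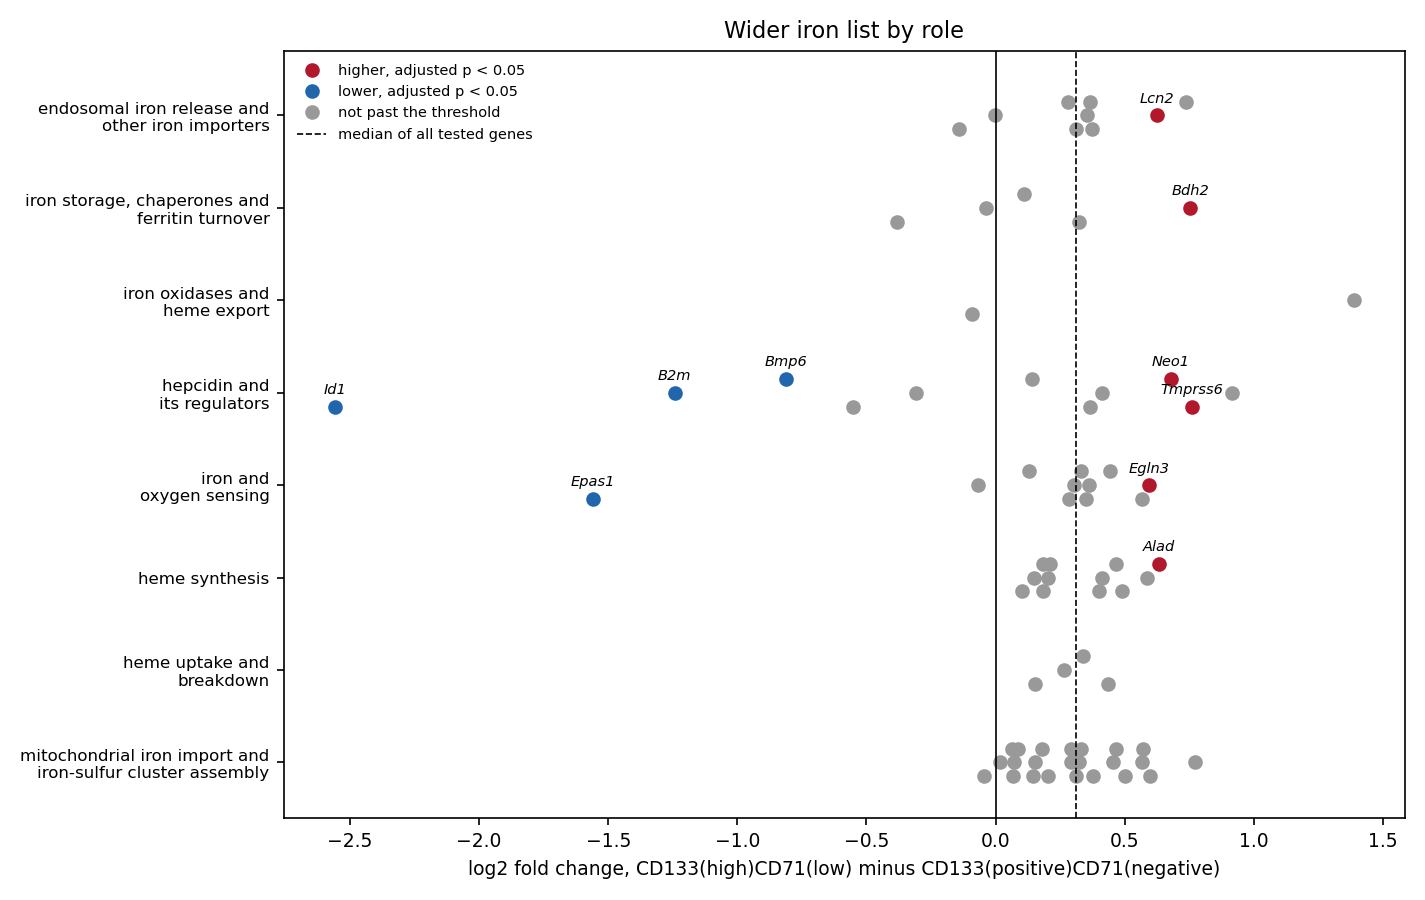
Log2 fold change (CD133(high)CD71(low) over CD133(positive)CD71(negative), limma, 5 libraries) of 77 tested genes of the wider iron list by role, with those past the threshold coloured and named. Most points lie around the dashed line at 0.31, the median of all tested genes, and the 4 fallen genes belong to the hepcidin and sensing roles.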

How the data were processed

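RNA of 5 libraries from sorted mouse pancreas cells was analysed. Each library has a table by the authors with a value for every gene symbol. Partek and mm10 are named per the submitters' processing notes. The aligner and annotation: not given in the sources used here. The unit of the deposited values is not stated and was inferred as RPKM (not separable from FPKM): 56.3% to 59.0% of low values times transcript length lay within 0.05 reads of a whole number of reads, against 10.0% by chance. Between 151 and 307 values per table were above 0 but below 0.0001, so reads were apportioned and counts could not be recovered. The search for that step was checked on simulated reads. A row of library 3 that names no gene (74.2 M alignments) was left out. No library was a duplicate: the variance ratio to sampling noise was 3.5 between CD133(high)CD71(low) libraries 1 and 2 and 2.8 between both CD133(positive)CD71(negative) libraries.

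Values were taken as log2(RPKM + 1) (pseudocount 1), and genes averaging 1 or more went into limma 3.58.1 under R 4.3.3 (trended empirical Bayes, group only, Benjamini-Hochberg over all genes tested, threshold 0.05). The fit was tested on simulated data. With 3 libraries against 2, an exact permutation test cannot give a two-sided p below 0.2, so none was used. Genes, lists and tests were chosen with earlier results of these data known. Named genes are the 10 members, per role of the iron list up to 2 risen and 2 fallen genes with the smallest adjusted p (or the 2 most abundant where none passed), the 5 genes most like Tfrc, and Prom1. One gene that this rule picked is not reported here. Of 98 symbols of the iron list, 7 were not matched and are not analysed here. Marker lists (proliferation, duct, acinar, endocrine, macrophage and monocyte, lymphocyte and plasma cell, erythroid, endothelial, stellate and mesenchymal, Schwann cell, hepatocyte) are described by sums. Libraries 1 and 2 carry their number in the title and library 3 does not. Alternatives were a pseudocount of 0.1, no filter, a minimum mean of 5, median-of-ratios scaling, each library left out, that scaling without library 3, the replicate number as a block, the numbered libraries' own tables, and removal of acinar genes with rescaling. Figures were made with Python 3.11.15 and matplotlib 3.10.9.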

Additional observations from a re-analysis of the deposited data

How the results depend on the processing

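Over 13 alternatives Tfrc kept its direction (log2 fold change 0.25 to 0.98 with each limma fit). It passed in 3, which all rest on the same 4 numbered libraries (0.45 each) and so are not separate results. These were the fit without CD133(high)CD71(low) library 3, those libraries with all symbols of their own tables, and the replicate number as a block. Leaving out each library in turn gave 0.45 to 0.98. Hmox1 was called in 10 of 12 and Hfe in 9 of 13 alternatives, each lower in all of them.

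The number of iron genes called depended on the libraries kept. With each library left out, 0 to 4 of the 10 rose and 0 to 2 fell, 0 to 32 of the iron list rose and 0 to 7 fell, and 0 to 4785 of all genes rose and 154 to 1425 fell. With median-of-ratios scaling, 2 of the iron list and 220 of all genes rose. With that scaling and without library 3, 2 of the 10 rose, 12 of the iron list rose and 14 fell, and 1438 of all genes rose and 2090 fell. With the numbered libraries' own tables, 4 of the 10 rose, 31 of the iron list rose and 7 fell, and 4780 of all genes rose and 1431 fell. Without a filter, 9 of the iron list and 1729 of all genes fell. With a mean of at least 5, 1 of the 10 fell, since Hmox1 was below it, and 315 of all genes fell. The cause of the other shifts was not tested.

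Among the named genes, signs turned with median-of-ratios scaling for Fth1 (-0.031), Slc11a2 (-0.056), Trf (-0.13) and Hmox2 (-0.062). With that scaling and without library 3 they turned for Slc11a2 (-0.058), Ireb2 (-0.17), Trf (-0.21) and Hmox2 (-0.14). With scaling, fold changes above 0 went from 64 to 37 of the 77 tested iron list genes and from 7 to 4 of the 9 members. Over all 11769 genes they went from 9461 to 6191. Abcg2, at -0.36 to 0.092 with each library left out, turned without CD133(high)CD71(low) library 2 or CD133(positive)CD71(negative) library 1. The cause was not tested.

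Libraries of the same number did not deviate together (r = -0.02 across genes, 2 pairs), so the number was not taken as a pairing. With the replicate block, in which library 3 carries no weight, 4 of the 10 rose, 35 of the iron list rose and 7 fell, and 5325 of all genes rose and 1492 fell. Depth limits Tfr2, which could not be compared, and leaves Hmox1 resting on the fewest reads of the 8 tested iron genes for which reads could be estimated.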
